A study of Saccharomyces cerevisiae with 8 samples.

Results

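Cyclins are short-lived proteins that bind a cyclin-dependent kinase and set when and on what it acts. In budding yeast the kinase Cdc28 is driven through the cell cycle by G1 cyclins, then S phase cyclins, then mitotic cyclins, and the kinase Pho85 has cyclins of its own, some of them periodic. Much of this order is set by transcription, because the factors SBF and MBF turn on the G1 and S phase cyclin genes, forkhead factors with Mcm1 the mitotic ones, and Swi5 genes of the exit from mitosis. Poly(A) ends of 10 cyclin genes, taken by name, were examined among the 5933 genes of the deposited tables. They were the G1 cyclin genes CLN3 (YAL040C), CLN1 (YMR199W) and CLN2 (YPL256C), the Pho85 cyclin genes PCL1 (YNL289W), PCL2 (YDL127W) and PCL9 (YDL179W), the S phase cyclin genes CLB5 (YPR120C) and CLB6 (YGR109C), and the mitotic cyclin genes CLB1 (YGR108W) and CLB2 (YPR119W). All 10 were present in every table and all 10 passed the filter on low counts.

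Helicos direct RNA sequencing captures polyadenylated RNA and reads its 3′ ends without making cDNA, and a read thus marks the poly(A) end of a molecule. It was run on 8 samples of the W303 background, and the labels do not say whether the 2 experiments were separate cultures. The 2 pcf11-13 cultures, with and without caffeine, were MATa, belonged to experiment 1 and lived on an untagged pcf11-13 allele. The 2 pcf11-dNL cultures, with and without caffeine, were MATalpha, belonged to experiment 2 and carried an allele tagged with V5 and MYC and named deltaN-link in the labels. Wild type was MATalpha with a PCF11 gene tagged with V5 and MYC, and was grown with and without caffeine in both experiments, which gave 2 libraries per medium. All strains had the pcf11-delta::TRP1 deletion, kept PCF11 or its allele on a pRS325-LEU2 plasmid, and carried trp1-delta, ura3-1, ade2-1, his3-11,15 and a leu2 allele. Pcf11 belongs to cleavage factor IA, an essential complex in cleaving nascent transcripts for polyadenylation and in terminating transcription. The treated cultures grew for 2 h more in rich glucose medium with 20 mM caffeine, a drug that inhibits the TORC1 kinase in yeast. Time in culture and cell density went with caffeine and cannot be told apart from it. Mating type and the missing tag likewise cannot be told apart from the pcf11-13 allele, since its 2 libraries were the only MATa and untagged ones.

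Total counts per library ran from 1070278 to 4555751. With caffeine they were 2088078 in pcf11-13, 4555751 in pcf11-dNL, and 4413677 and 4410374 in wild type of experiments 1 and 2. Without caffeine they were 2393801, 1071339, 1070278 and 1631254 in the same order, so depth went with caffeine except in pcf11-13. The summed raw counts of the 10 genes were higher with caffeine in every pair but pcf11-13, and the falls below are in scaled levels. URA3 together with 2-micron plasmid genes made up 11.4% of the total counts in treated and 8.36% in untreated wild type of experiment 1, against 0.252% to 0.463% in the other 6. The a-factor gene MFA2 was at 1312 (caffeine) and 1864 (untreated) CPM, that is counts scaled to a common library size with TMM factors, in the pcf11-13 libraries and at 7.47 to 25.2 CPM elsewhere, which goes with the labelled mating types. The labels name no synchronisation of the cultures. In such bulk RNA, fewer cells in the phase that expresses a cyclin and less of its RNA per cell cannot be told apart.

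The windows below hold the elements that the factors named above are known to bind, shown because such elements go with the usual time of expression of these genes. They were read from the RefSeq R64 assembly, the same assembly as sacCer3, as 30-base windows 5′ to 3′ on the strand of the gene, and capitals mark the matched letters. The SBF element (SCB, searched as CACGAAA on both strands of the 800 nt before the start codon) was found in 4 of the 10 genes, against 10.8% of 5997 such windows of all genes. It lay 792 nt before CLN1, 581 and 538 nt before CLN2, 370 nt before PCL2 and, in antisense, 327 nt before PCL1.
CLN1, chrXIII:661844-661873, plus strand: ggtaaagcCACGAAAacaccgcgcgtaaag
CLN2, chrXVI:67177-67206, minus strand: caacggaagtaCACGAAAttcgtcccgctg
CLN2, chrXVI:67134-67163, minus strand: cgtgttctagtCACGAAAcgcgccaaaaac
PCL1, chrXIV:87559-87588, plus strand: acgaacaagaaTTTCGTGttaaaaatcgcg
PCL2, chrIV:234546-234575, plus strand: acttcgcgtaaCACGAAAaatgctggtgca

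The MBF element (MCB, ACGCGT, both strands) was found in 2 of the 10 genes, CLN1 and CLB6, against 7.62% of all windows, and CLB6 held it 403 and 377 nt before its start codon. The Swi5 element (ACCAGC, both strands) was found in 3 genes, PCL2, PCL9 and CLB5, against 23.6% of all windows. PCL9 held it 325 and 281 nt before its start codon. The forkhead element (GTAAACA, both strands) was found in 4 genes, CLN1, CLB6, CLB1 and CLB2, against 15% of all windows. No window of CLN3 held any of these 4 motifs. A match describes letters and not binding.
CLB6, chrVII:706887-706916, minus strand: aatagcagttttACGCGTaccacaaaattt
CLB6, chrVII:706861-706890, minus strand: atttaacgaccaACGCGTattcttcgcgtt
PCL9, chrIV:137954-137983, plus strand: cgctgcgcggaaACCAGCgtcactaatttt
PCL9, chrIV:137998-138027, plus strand: cactaaaaaaaaACCAGCtcaagtagataa
CLB1, chrVII:702997-703026, plus strand: gcacgacctttTGTTTACaaccgcccaaag
CLB2, chrXVI:770878-770907, plus strand: tttgtataataTGTTTACatattgagcccg

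Each of the 10 genes has a single coding exon in the R64 annotation, and no 30-base word of the genes with 500 nt downstream occurs elsewhere in the genome, so that the paralogs do not share reads of that length. The 4 B-type genes form 2 facing pairs. CLB1 (chromosome VII, 703636 to 705051, plus strand) faces CLB6 (705359 to 706501, minus strand) across 307 nt. CLB2 (chromosome XVI, 771653 to 773128, plus strand) faces CLB5 (773875 to 775182, minus strand) across 746 nt. The G1 and Pho85 cyclin genes lie elsewhere, CLN3 on chromosome I (65778 to 67520), CLN1 on XIII (662644 to 664284), CLN2 on XVI (64977 to 66614), PCL1 on XIV (87897 to 88736), PCL2 on IV (234927 to 235853) and PCL9 on IV (138291 to 139205).

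The authors' mean 3′ UTR length gives how far into those gaps the transcripts reached. In CLB1 it was 264, 214, 216 and 188 nt with caffeine (pcf11-13, pcf11-dNL, wild type of experiments 1 and 2, the order of strains used for all such values) and 334, 197, 215 and 173 nt without it. In CLB6 it was 160, 232, 203 and 268 nt with caffeine and 152, 216, 340 and 160 nt without it. The summed lengths of this pair, taken as deposited, exceeded the 307 nt gap in all 8 libraries, by 25.7 to 249 nt. These lengths rest on few reads. In untreated wild type of experiment 1, which had the largest excess, CLB6 had 12.0 and CLB1 19.5 counts. Both genes fell under the minimum of 20 counts set for the poly(A) tests below. The lengths of CLB2 and CLB5 summed to 116 to 349 nt less than their gap in all 8 libraries. The sources used here do not say whether counting used the strand, so reads between CLB1 and CLB6 could have been given to either gene, and both are reported as uncertain.

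**Figure D1:**
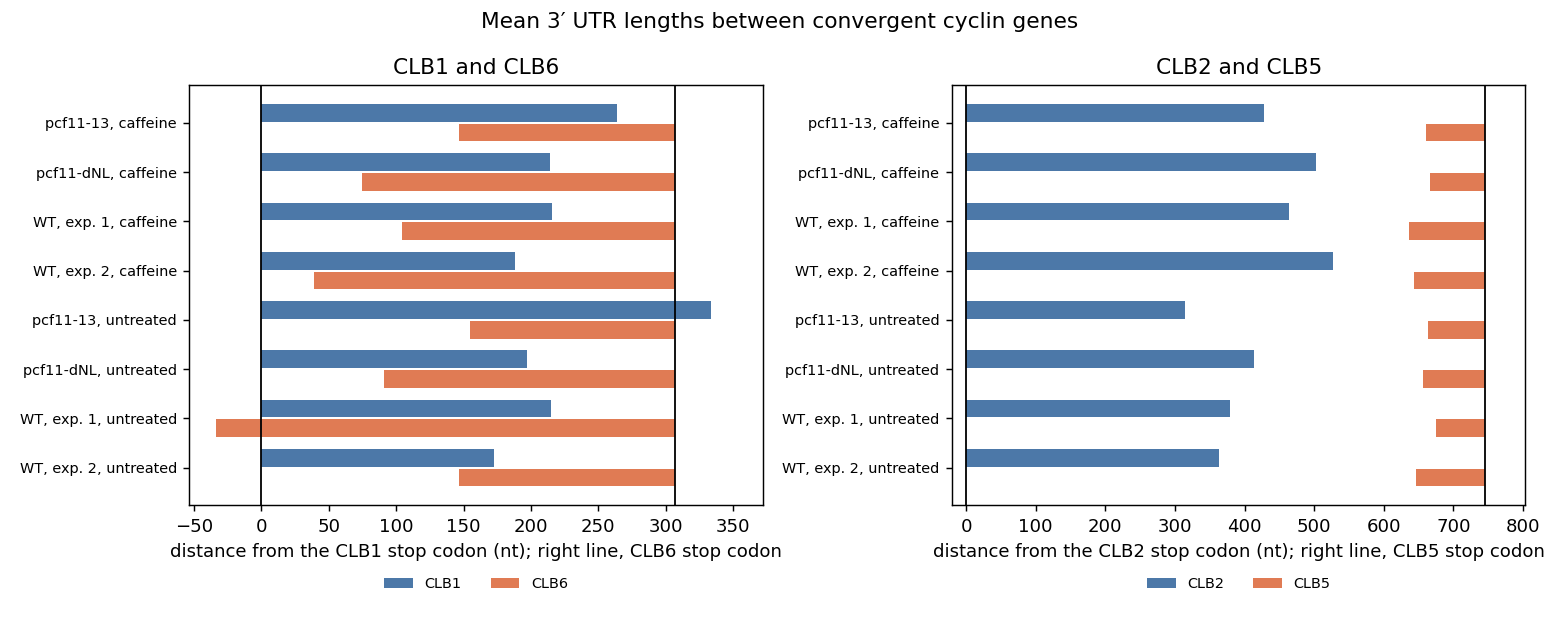
Mean 3′ UTR lengths (nt) of the facing genes CLB1 and CLB6 (left) and CLB2 and CLB5 (right) in each of the 8 libraries, drawn from the 2 stop codons, which are the vertical lines. The bars of CLB1 and CLB6 pass each other in every library, and those of CLB2 and CLB5 do not meet. The lengths of CLB1 and CLB6 rest on few reads.

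TATATA, which reads alike on both strands and is a known form of the yeast polyadenylation efficiency element, stood in the 600 nt after the stop codon, on the sense strand, of 7 of the 10 genes, against 64% of 5986 such windows. Between CLB1 and CLB6 it lay 101 nt after the CLB1 stop codon and 202 nt after that of CLB6, a site that both genes share. The mean end of CLB1 lay beyond the first base of that site in all 8 libraries, and that of CLB6 in 5 of 8. The CLB2 match lay 593 nt after its stop codon, beyond its mean end in every library (at most 527 nt). It was the same site as the CLB5 match 149 nt after the CLB5 stop codon.
CLB1, chrVII:705140-705169, plus strand: acggttatctcaTATATAttatcacacggt
CLB6, chrVII:705140-705169, minus strand: accgtgtgataaTATATAtgagataaccgt

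The first question was how caffeine changed the level of cyclin RNA. In wild type 5 of the 10 genes fell, and over all strains 9 fell, with PCL1 far in front. Both counts include CLB1 and the second includes CLB6, between which reads could have been misassigned. The calls of CLB6 and CLB2 over all strains depended on single libraries, as given below. PCL1, whose product joins Pho85 in G1 and acts in polarised growth, fell 18.9-fold in wild type and 10.5-fold over all strains. The Start cyclin gene CLN1 fell 3.91-fold and CLN2 3.00-fold in wild type. PCL2, the close paralog of PCL1, was the gene that did not pass in either comparison. Among all 5849 genes tested, 14.5% were called lower and 17.1% higher in wild type, and 18% lower and 19.9% higher over all strains (edgeR quasi-likelihood test, adjusted p below 0.05). The median log2 change of the 10 genes was -0.86 in wild type and -0.76 over all strains, against 0.02 and -0.0035 over all genes.

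**Figure D2:**
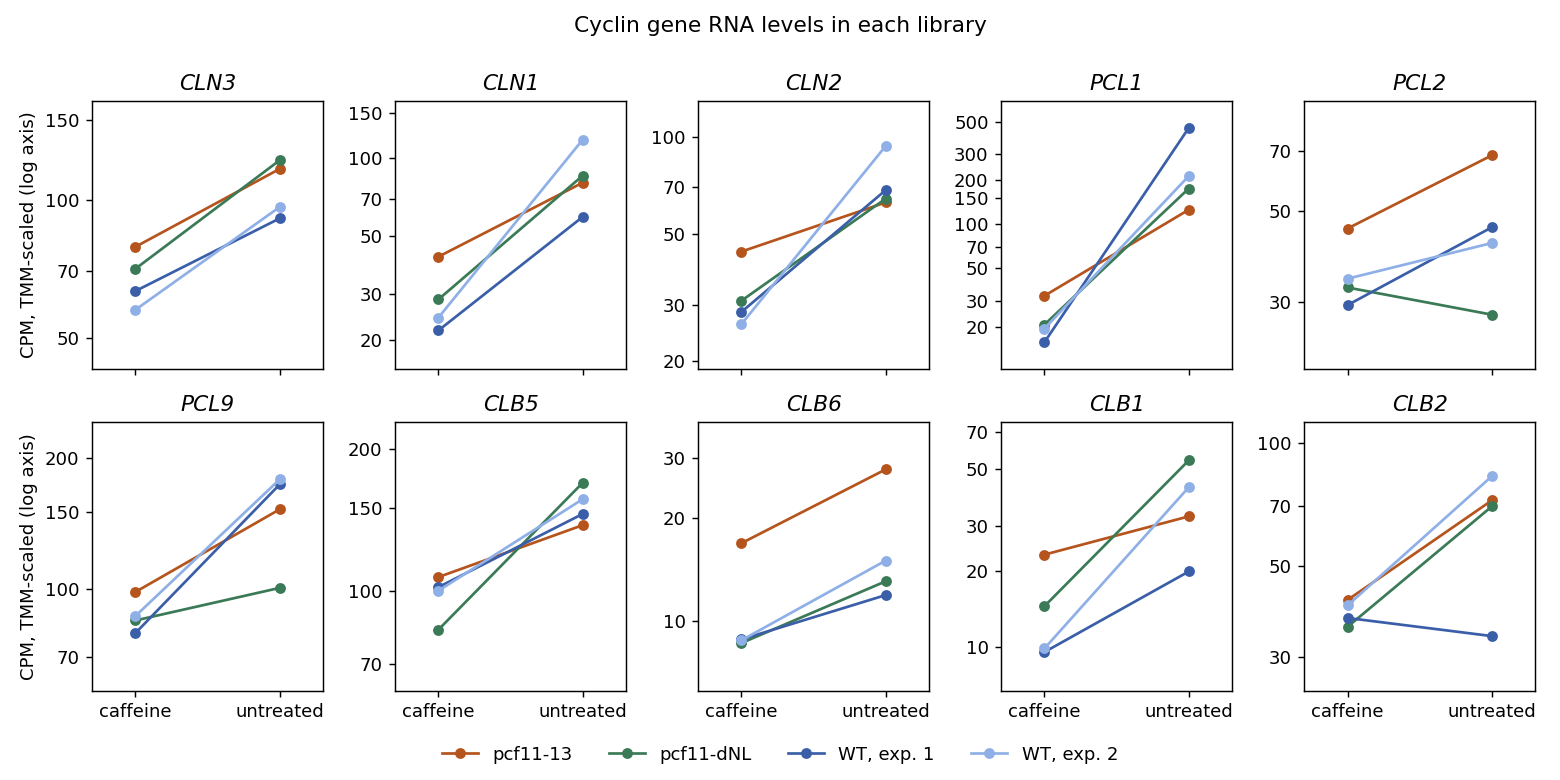
Level of each cyclin gene (CPM, TMM-scaled, log axis) with caffeine and untreated, 1 point per library, with a line joining the 2 media of a strain in the same experiment. All lines rise towards the untreated side except those of PCL2 in pcf11-dNL and CLB2 in wild type of experiment 1.

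Among the G1 cyclins, CLN3 encodes the upstream activator of Start, whose kinase complex acts on the SBF inhibitor Whi5. CLN3 stood at 79.1, 70.9, 63.4 and 57.7 CPM with caffeine and at 117, 122, 91.3 and 96.7 CPM without it. All treated libraries lay below all untreated ones. The change was -0.64 ± 0.21 on the log2 scale in wild type (SE, 2 libraries per medium, edgeR adjusted p = 0.050, not called) and -0.66 ± 0.14 over all strains (adjusted p = 0.0068).

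CLN1 and CLN2, which are SBF targets and carry the cell past Start, fell further. CLN1 was at 41.8, 28.6, 21.7 and 24.3 CPM with caffeine and at 80.7, 85.9, 59.5 and 118 CPM without it. Its 2 media did not overlap, although the untreated wild-type libraries lay far apart. The log2 change was -1.97 ± 0.33 in wild type (edgeR adjusted p = 0.0045) and -1.61 ± 0.26 over all strains (0.0026). Leaving out untreated wild type of experiment 2 gave -1.37 in wild type (edgeR adjusted p = 0.028). CLN2 was at 44.0, 30.9, 28.5 and 26.1 CPM with caffeine and at 62.7, 64.4, 68.5 and 94.1 CPM without it, again without overlap. Its log2 change was -1.58 ± 0.25 in wild type (edgeR adjusted p = 0.0038) and -1.18 ± 0.22 over all strains (0.0046).

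Among the Pho85 cyclins, PCL1 was at 32.5, 20.6, 15.7 and 19.4 CPM with caffeine and at 126, 175, 455 and 214 CPM without it. The treated libraries lay close together and the untreated ones spread widely, with wild type of experiment 1 highest and pcf11-13 lowest. Within a strain and experiment PCL1 was 3.81-fold lower with caffeine in pcf11-13, 8.25-fold lower in pcf11-dNL, and 27.8-fold and 10.7-fold lower in wild type of experiments 1 and 2. The fitted change was -4.24 ± 0.40 in wild type (edgeR adjusted p = 0.001) and -3.40 ± 0.43 over all strains (0.001). Without the untreated wild-type library of experiment 1 the wild-type change was -3.60 (edgeR adjusted p = 0.0029).

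PCL2 acts with Pho85 in G1 as PCL1 does, and its gene holds both an SCB and Swi5 elements. It was at 45.3, 32.6, 29.5 and 34.2 CPM with caffeine and at 68.3, 28.0, 45.6 and 41.8 CPM without it. The untreated pcf11-dNL library was the lowest of all 8, so that the media overlapped, and the change was -0.34 ± 0.19 over all strains (edgeR adjusted p = 0.18). PCL9, the Pho85 cyclin gene that Swi5 turns on at the end of mitosis, was at 98.7, 84.96, 79.5 and 87.0 CPM with caffeine and at 152, 101, 174 and 178 CPM without it. Its media did not overlap, but the treated pcf11-13 library nearly reached the untreated pcf11-dNL one. PCL9 changed by -1.08 ± 0.21 in wild type (edgeR adjusted p = 0.0078) and by -0.76 ± 0.18 over all strains (0.011).

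The S phase cyclin genes CLB5 and CLB6, whose products start DNA replication, had small changes. CLB5 was at 107, 82.9, 102 and 100.2 CPM with caffeine and at 138, 169.9, 146 and 157 CPM without it, with no overlap. The change was -0.58 ± 0.21 in wild type (edgeR adjusted p = 0.064) and -0.64 ± 0.16 over all strains (0.014). CLB6 was the least read of the 10, at 16.9, 8.62, 8.84 and 8.79 CPM with caffeine and at 27.8, 13.1, 11.9 and 15.0 CPM without it. The values in pcf11-13 were the highest within each medium, and its treated library lay above 3 untreated ones. The fewest reads, 12.0 in untreated wild type of experiment 1, had a 95% Poisson interval of 6.20 to 21.0, which covers counting error only. CLB6 changed by -0.63 ± 0.33 in wild type (edgeR adjusted p = 0.17) and by -0.65 ± 0.20 over all strains (0.033).

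The mitotic cyclin genes CLB1 and CLB2, whose products drive entry into mitosis, differed between experiments. CLB1 was at 23.1, 14.5, 9.59 and 9.91 CPM with caffeine and at 32.6, 54.1, 19.8 and 42.5 CPM without it. Treated pcf11-13 lay above untreated wild type of experiment 1, and elsewhere the treated libraries were the lower ones. CLB1 changed by -1.71 ± 0.38 in wild type (edgeR adjusted p = 0.013) and by -1.44 ± 0.31 over all strains (0.0077). With the untreated wild-type library of experiment 2 left out, CLB1 no longer passed in wild type (-1.02, edgeR adjusted p = 0.11).

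CLB2, the main mitotic cyclin gene, was at 41.3, 35.5, 37.4 and 40.1 CPM with caffeine and at 72.4, 70.01, 33.7 and 83.0 CPM without it. The treated libraries were nearly equal, and the untreated wild-type library of experiment 1 lay below all 4 of them. Within that experiment the wild-type difference was 0.14 on the log2 scale, against -1.04 in experiment 2, -0.80 in pcf11-13 and -0.96 in pcf11-dNL. CLB2 did not pass in wild type (-0.63 ± 0.36, edgeR adjusted p = 0.21), where leaving out the untreated library of experiment 1 or 2 gave -1.10 (0.02) and 0.20 (0.68). It passed over all strains (-0.76 ± 0.25, edgeR adjusted p = 0.040).

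**Figure D3:**
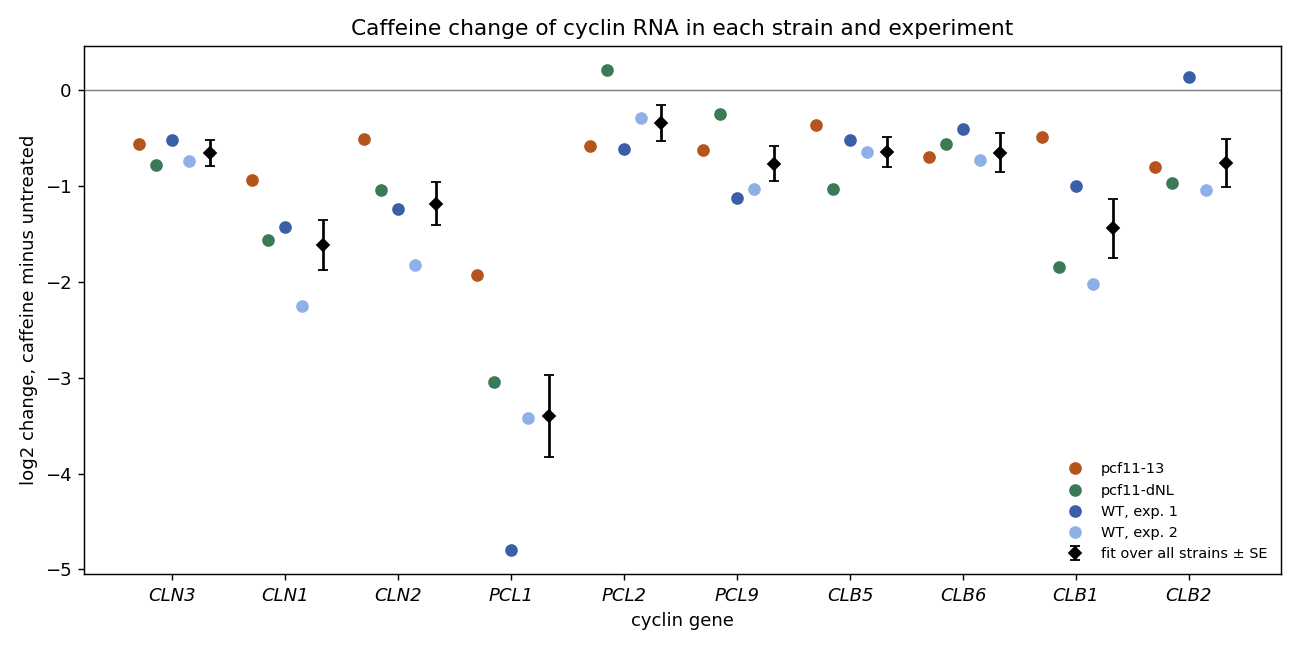
Log2 change with caffeine of each cyclin gene within each strain and experiment (coloured points, single library pairs) and in the fit over all strains (black diamonds, bars ± SE). PCL1 lies between -1.93 and -4.80, and 38 of the 40 points lie below 0. All genes share the same library pairs, so the points are not independent. The share of such points below 0 over all genes was not counted.

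Across the 10 genes, 6 had all 4 treated libraries below all 4 untreated ones, which 15.3% of 5849 genes did. These were CLN3, CLN1, CLN2, PCL1, PCL9 and CLB5. The calls of CLB6 and CLB2 over all strains depended on which libraries were in the fit. That of CLB6 was lost without any 1 of 7 libraries (edgeR adjusted p from 0.061 to 0.095) and kept without untreated wild type of experiment 1, and DESeq2 did not call it (DESeq2 adjusted p = 0.052). That of CLB2 was lost without any 1 of 7 libraries (0.059 to 0.16) and kept without the same one. CLB5 lost its call without either pcf11-dNL library (-0.51, edgeR adjusted p = 0.085 without the untreated and 0.083 without the treated one), and PCL9 without treated wild type of experiment 1 (-0.67, 0.05).

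Whether the mutants answered caffeine differently was tested as a difference of changes. None of the 10 genes passed for pcf11-13 or pcf11-dNL with edgeR, where 0% of all genes passed in both cases. At an unadjusted p below 0.05 there were 2 of 10 cyclin genes for pcf11-13, where 14.1% of all genes had one, and 0 for pcf11-dNL, where 2.19% had one. For pcf11-13 these were PCL1, with a difference of 2.29 ± 0.64 on the log2 scale (edgeR adjusted p = 0.26), and CLN2, with 1.07 ± 0.42 (0.32). For pcf11-dNL the difference of PCL1 was 1.16 ± 0.63 (edgeR adjusted p = 1) and that of PCL9 was 0.83 ± 0.37 (1). DESeq2 called 0 cyclin genes in both cases. For pcf11-13 it called 42 of the 2674 genes to which it gave an adjusted p, and for pcf11-dNL 3 of 5849. Genes without an adjusted p were counted as not called. Leaving out either treated wild-type library left 1 library in that group. Calls then rose over all genes, so a call of PCL1 for pcf11-13 in those edgeR fits cannot be read as particular to it.

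The mutants were then set against wild type over both media. None of the 10 genes was called in pcf11-13, where 3.09% of all genes were, and none in pcf11-dNL, where 0% were. CLB6 came nearest in pcf11-13, with 16.9 CPM against 8.84 CPM in wild type of the same experiment with caffeine, and 27.8 CPM against 11.9 CPM without it. Its mutant effect was 0.98 ± 0.23 on the log2 scale (edgeR adjusted p = 0.057), and DESeq2 called it (DESeq2 adjusted p = 0.048). PCL2 had an effect of 0.59 ± 0.22 in pcf11-13 (0.18), and PCL2 and CLB6 were the 2 of 10 with an unadjusted p below 0.05 there, which 21.05% of all genes had. CLB1 had effects of 0.64 ± 0.37 in pcf11-13 (0.36) and 0.67 ± 0.37 in pcf11-dNL (edgeR adjusted p = 1). PCL1 differed from wild type of experiment 1 by 1.02 with caffeine and by -1.85 without it in pcf11-13, so that its averaged effect of -0.28 ± 0.52 describes neither medium. In pcf11-dNL 0 of the 10 had an unadjusted p below 0.05, which 2.79% of all genes had.

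The share of truncated reads, which are poly(A) ends that the authors did not place in the 3′ UTR, set the cyclin genes apart from each other. Pooled over the libraries it was 53.98% in CLB5, 44.1% in CLN1, 31.6% in CLB2, 26.9% in CLB1, 24.1% in CLN3 and 22.8% in CLB6. It was 9.09% in PCL2, 7.04% in CLN2, 1.86% in PCL9 and 1.63% in PCL1. Pooling weights the deeper libraries, and the mean over libraries turned the order of close values, with 7.57% in CLN2 and 7.50% in PCL2, and 2.70% in PCL1 and 1.69% in PCL9. CLN1 and CLN2, which are close paralogs, thus lay far apart, as did the facing genes CLB5 and CLB2. Of all genes, 5167 reached 20 counts in each of the 8 libraries, and among them the mean share of CLB5 was at the 94.9th percentile, that of CLN1 at the 90.4th and that of PCL9 at the 21.7th. CLB6 and CLB1 fell under this minimum and were not tested for poly(A) measures.

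**Figure D4:**
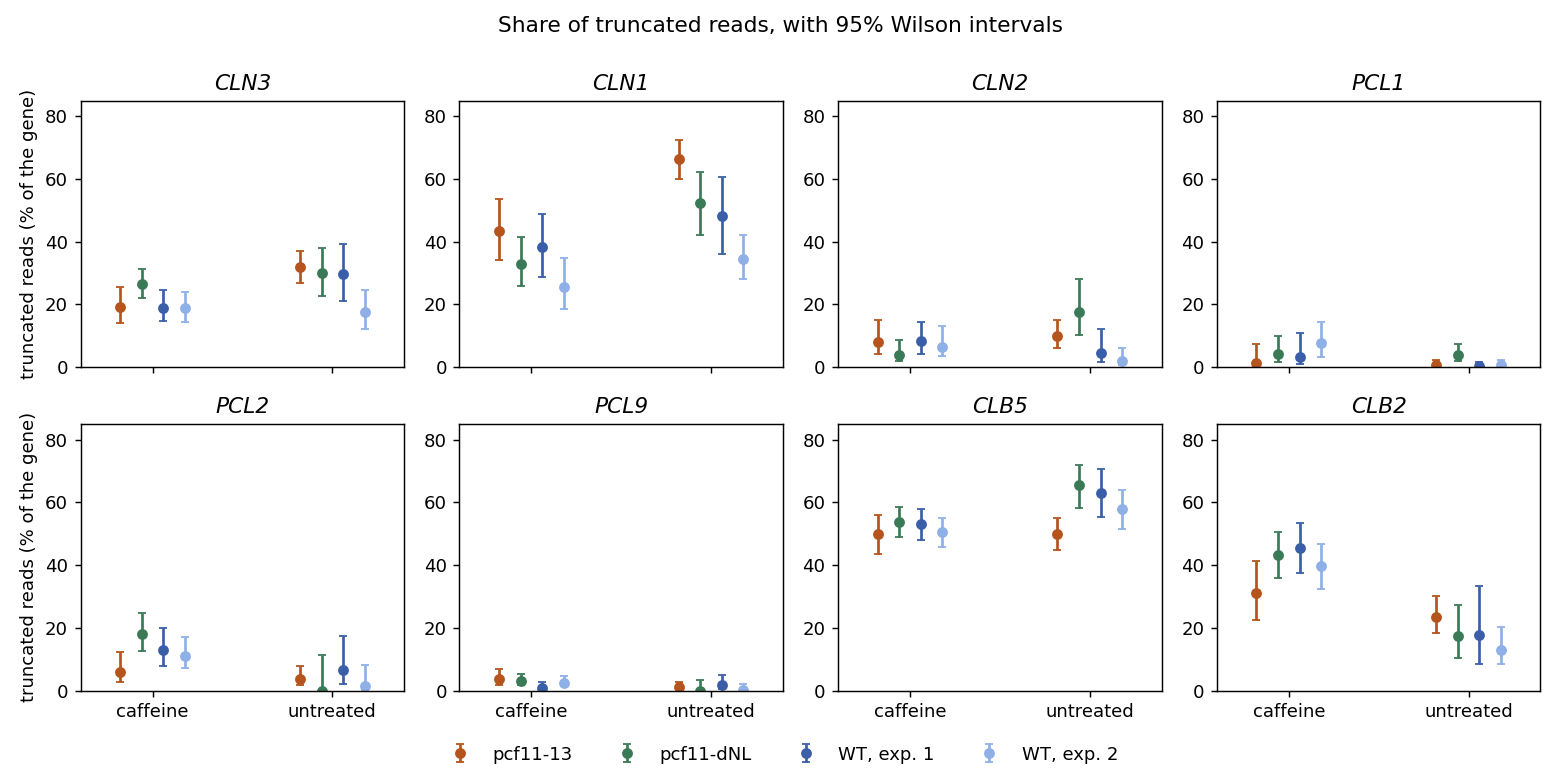
Share of truncated reads (% of the gene's reads) in each library for the 8 cyclin genes with enough reads, with 95% Wilson intervals that cover counting error only. CLB2 lies at 31.0% to 45.5% with caffeine and at 13.0% to 23.6% untreated, and CLB5 lies near or above 50% throughout.

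CLB2 moved most with caffeine. Its truncated share was 31.0%, 43.4%, 45.5% and 39.7% with caffeine and 23.6%, 17.5%, 17.8% and 13.0% without it. All treated libraries lay above all untreated ones, which 3.91% of 5167 genes did and no other tested cyclin gene did. The rise was 21.9 ± 4.2 percentage points over all strains (limma adjusted p = 0.041) and 27.2 ± 3.2 in wild type (0.12, not called). Over all strains 1 of 8 cyclin genes was called, where 10.5% of genes were. In wild type 0 of 8 were called, where 0% were, and 3 of 8 had an unadjusted p below 0.05, as did 19.8% of all tested genes. The call was lost with the experiment as a block (limma adjusted p = 0.055) and without any 1 of the 6 wild-type and pcf11-dNL libraries (0.072 to 0.14), with values of 19.7 to 22.0 percentage points. The median share over all tested genes was 4.57% to 6.16% with caffeine and 6.02% to 8.73% without it, and was lower with caffeine in each of the 4 pairs.

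Scaled to CPM, CLB2 ends outside the 3′ UTR were at 12.8, 15.4, 17.0 and 15.9 CPM with caffeine and at 17.1, 12.2, 6.0003 and 10.8 CPM without it. Its ends in the 3′ UTR were at 28.5, 20.1, 20.4 and 24.2 CPM with caffeine and at 55.3, 57.8, 27.7 and 72.2 CPM without it. The second class was thus lower with caffeine in every strain, by little in wild type of experiment 1, and the first was higher in pcf11-dNL and both wild-type pairs and lower in pcf11-13.

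CLN1 went the other way as a point estimate, with 43.4%, 32.8%, 38.2% and 25.5% truncated reads with caffeine and 66.5%, 52.4%, 48.3% and 34.5% without it. The share was lower with caffeine in all 4 strain pairs, but the media overlapped and the change of -15.5 ± 5.0 percentage points over all strains did not pass (limma adjusted p = 0.11). CLB5 had 50.1%, 53.9%, 53.1% and 50.5% with caffeine and 49.9%, 65.5%, 63.2% and 57.9% without it, a change of -7.23 ± 2.43 that did not pass either (0.12). Both classes of CLB5 ends were lower with caffeine, those in the 3′ UTR at 53.5, 38.2, 47.8 and 49.6 CPM against 69.2, 58.6, 53.7 and 66.0 CPM untreated. The PCL2 share was 5.91%, 18.1%, 12.8% and 11.2% with caffeine and 3.84%, 0.026%, 6.60% and 1.58% without it, a change of 8.97 ± 2.87 (limma adjusted p = 0.11). It was higher with caffeine in all 4 pairs, by 2.08 to 18.03 percentage points.

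**Figure D5:**
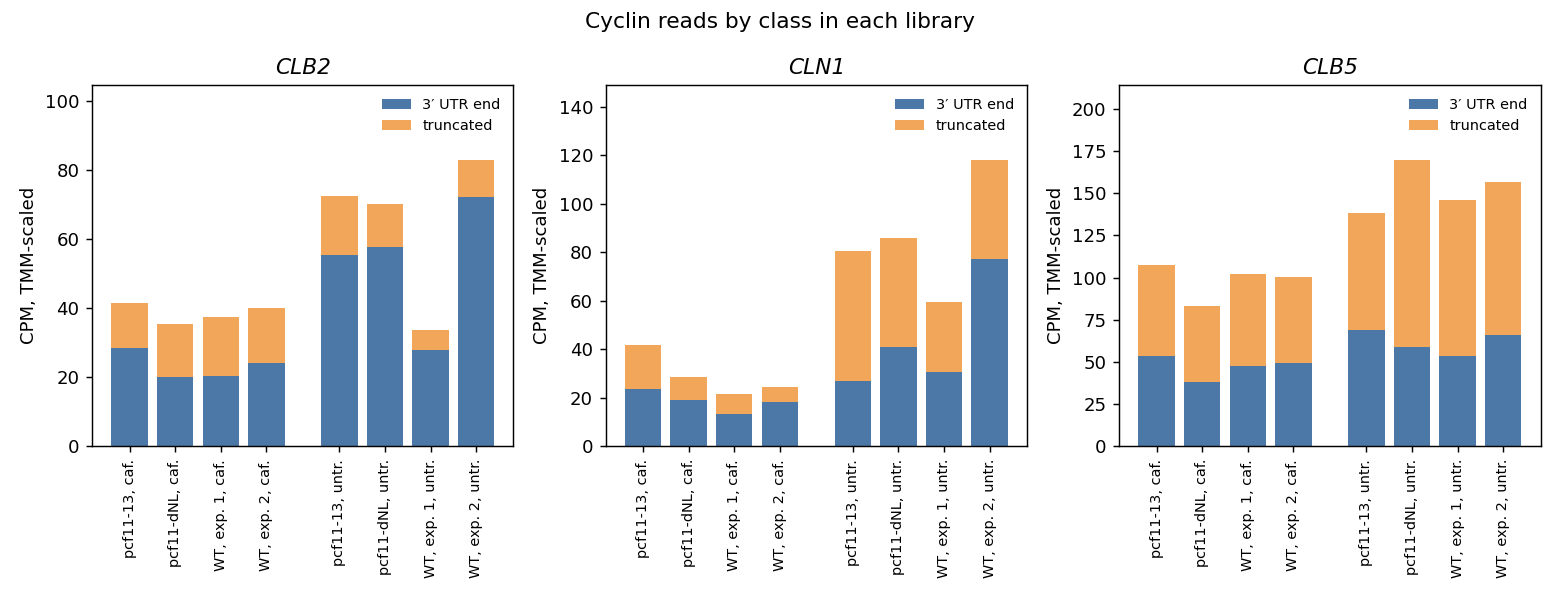
Reads of CLB2, CLN1 and CLB5 (CPM, TMM-scaled) in each library, split into ends in the 3′ UTR (blue) and truncated ends (orange). In CLB2 the blue part is smaller with caffeine than in the same strain untreated, and in CLN1 both parts are.

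In the mutants no cyclin gene passed for the truncated share, with 0 of 8 in pcf11-13, where 0.213% of genes passed, and 0 of 8 in pcf11-dNL, where 0% did. CLN1 had the only unadjusted p below 0.05, in pcf11-13 (18.3 ± 6.1 percentage points, limma adjusted p = 0.28), where 14.5% of all tested genes had one. It was higher there by 5.23 percentage points with caffeine and by 18.2 without it than in wild type of the same experiment.

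The last question was whether 3′ UTRs changed in length. CLN2 was the 1 cyclin gene of 8 called over all strains, where 1.37% of genes were. Its mean 3′ UTR was 302, 271, 280 and 271 nt long with caffeine and 270.1, 232, 251 and 246 nt without it, longer by 24.3 to 39.3 nt in each pair. The change was 31.0 ± 3.6 nt (limma adjusted p = 0.034). It was lost with the experiment as a block (0.056), with a variance trend (0.059) and without any 1 of the 6 wild-type and pcf11-dNL libraries (0.079 to 0.12), with values of 28.2 to 33.7 nt. In CLN2 a TATATA lay 147 nt after the stop codon.
CLN2, chrXVI:64813-64842, minus strand: taattttaacggTATATAtttatatttttg

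CLB2 had the longest mean 3′ UTR of the tested cyclin genes, at the 96.8th percentile of all tested genes. It was 428, 502, 463 and 527 nt with caffeine and 315, 413, 379.7 and 364 nt without it. All treated libraries thus lay above all untreated ones, as they barely did in CLN2 (270.6 against 270.1 nt at the closest). The share of all genes that did so for 3′ UTR length was not counted. The difference of 112 ± 16 nt over all strains just missed the threshold (limma adjusted p = 0.054), and the wild-type difference was 123 ± 27 nt (0.14). At the other end, CLB5 was at the 16.7th percentile, with 79.6 to 110 nt with caffeine and 70.9 to 99.6 nt without it. PCL1 was at the 94.4th percentile, with 290.5, 311, 452 and 385 nt with caffeine and 326, 369, 397 and 298 nt without it. PCL9, CLN1 and PCL2 differed between the media by at most 26.8 nt in any pair.

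In wild type alone 0 of 8 cyclin genes passed for 3′ UTR length, where 0.0387% of genes did. In pcf11-13 0 of 8 passed, where 0.678% did, with CLN2 longer by 23.8 ± 4.4 nt (limma adjusted p = 0.079) and CLB2 shorter by a point estimate of -62.1 ± 19.5 nt (0.18). In pcf11-dNL 0 of 8 passed, where 0% did. The proximal share, a second deposited fraction whose bounds the sources used here do not state, was not called for any of the 8 genes. The background was 0.0581% in wild type, 0.0387% over all strains, 0.174% in pcf11-13 and 0% in pcf11-dNL. PCL2 had the largest value over all strains, 8.50 ± 2.28 percentage points (limma adjusted p = 0.22).

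Lists of genes that act with the cyclins were counted in the wild-type caffeine comparison, beside the 14.5% lower and 17.1% higher of all genes. Of the 13 other cyclin genes of yeast, 2 rose and 0 fell. These were SSN8, the cyclin of the Mediator kinase module (1.34 ± 0.22, edgeR adjusted p = 0.0044), and PHO80, the Pho85 cyclin of phosphate control (0.88 ± 0.23, 0.023). Of 12 kinase genes and direct regulators, 0 rose and 3 fell. FAR1, an inhibitor of the G1 cyclin kinases, fell (-1.81 ± 0.32, edgeR adjusted p = 0.0054), as did WHI3, whose product binds CLN3 mRNA (-1.32 ± 0.25, 0.0068). Of 17 transcription factor genes, 1 rose and 2 fell. XBP1, a stress-induced repressor, rose (1.33 ± 0.42, edgeR adjusted p = 0.043), and YHP1, a repressor of early cell cycle boxes, fell (-2.11 ± 0.29, 0.0027). Of 16 genes of cyclin degradation, 1 rose, the anaphase-promoting complex gene CDC23 (1.11 ± 0.27, 0.018), and 2 fell, among them its activator gene CDH1 (-0.91 ± 0.22, 0.017).

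Targets of the same transcription factors were counted likewise. Of 30 G1/S targets of SBF and MBF, 6 fell and 0 rose (median -0.43), with RNR1, a subunit of ribonucleotide reductase, at -2.13 ± 0.27 (edgeR adjusted p = 0.0019) and SVS1 at -2.09 ± 0.32 (0.0034). Of 16 genes of the CLB2 cluster, 3 fell and 0 rose (median -0.42), with the kinase gene KIN3 at -1.24 ± 0.33 (0.023) and the chitin synthase gene CHS2 at -1.003 ± 0.231 (0.015). Of 8 genes of the MCM cluster, 2 fell and 0 rose, MCM6 (-1.06 ± 0.22, 0.010) and MCM3 (-0.76 ± 0.24, 0.042), both subunits of the replicative helicase. Over all strains, beside 18% lower and 19.9% higher of all genes, the balance of several lists was another one. There 1 of the other cyclin genes was higher and 2 lower, 2 kinase genes and regulators higher and 3 lower, 1 transcription factor gene higher and 1 lower, and 4 degradation genes higher and 2 lower. Of the G1/S targets 2 were higher and 5 lower, of the CLB2 cluster 2 higher and 2 lower, and of the MCM cluster 0 higher and 4 lower. SWI4, SWI5 and CDC20 each stand in more than 1 of these lists.

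In pcf11-13 against wild type 1 gene rose in each of 2 of these 7 lists and 2 in the G1/S list, and 0 fell in any, beside the 3.09% of all genes called in either direction. PCL8, a Pho85 cyclin gene of glycogen control, rose (1.22 ± 0.26, edgeR adjusted p = 0.045), as did XBP1 (1.87 ± 0.33, 0.030) and the sliding clamp gene POL30 (1.57 ± 0.24, 0.019). In pcf11-dNL 0 genes of these lists passed.

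The likeness of levels over the 8 libraries was described by Pearson's r of log2 CPM, with no test, because all values share the same libraries and the split by medium. Among the 10 genes r ran from 0.25 between PCL2 and CLB5 to 0.97 between CLN1 and CLN2. CLN1 with CLB1 (0.94), CLN3 with CLB1 (0.93) and CLN2 with PCL1 (0.92) came next. Most of the lowest values involved PCL2, with 0.27 for CLB1 and 0.28 for CLB2. Among 5462 genes outside the set, CLN2 was most like RPE1 (0.99), POM152 (0.99) and MRPL11 (0.98), and PCL1 was most like SCW10 (0.99), PCC1 (0.99) and MET14 (0.99). CLN3 was most like SEN2 (0.99), HUB1 (0.98) and HNT1 (0.97), PCL9 most like YND1 (0.98), YKL068W-A (0.97) and DUO1 (0.97), and CLB2 most like MDM32 (0.97), PET191 (0.96) and ALD6 (0.96).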

How the data were processed

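Per the file headers, the authors deposited expected counts per gene, a mean 3′ UTR length, a truncated fraction and a proximal fraction for 8 libraries; a further table pools their reads. Lengths of -1 (40 values) were treated as missing. The submitters' processing notes name the build sacCer3. Aligner, counting rules and use of strand were not given in the sources used here. Of the deposited counts 9.72% were whole within 1e-06. After rounding, they were tested in R 4.3.3 with edgeR 4.0.16 (TMM, filterByExpr, quasi-likelihood test, Benjamini-Hochberg over 5849 genes, threshold 0.05). For caffeine in wild type, and for its difference in a mutant, 6 group means were fitted, and the 2 wild-type pairs give all of the residual spread. For caffeine over all strains and for the mutants, genotype and medium were fitted as additive terms. Mutant libraries, 1 per group, are assumed to vary as wild type does. Poly(A) measures were tested on the deposited values with limma 3.58.1, over 5167 genes (5165 for length) with at least 20 counts in every library. Truncated CPM is the deposited fraction times the CPM. Log2 differences between single libraries had a prior count of 2.

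The experiment number is a label of the submitters and pairs the libraries. In wild type, deviations from the group means in the treated and untreated libraries of experiment 1 correlated at r = 0.19 over 5849 genes. The labels do not say whether the experiments were separate cultures, and the p-values thus reflect only how these libraries spread, possibly for technical reasons. The wild-type libraries of the 2 experiments were not alike in URA3 and 2-micron counts. These made up 11.4% (caffeine) and 8.36% (untreated) in experiment 1, against 0.304% and 0.368% in experiment 2. The reason for this difference was not tested. Alternatives were DESeq2 1.42.0, its size factors, no filter, a block for experiment, other count minimums, a variance trend, leaving out URA3 and 2-micron features, and each library left out in turn. The named genes were the 10 cyclin genes, up to 2 called genes with the largest change per list (1 per mutant comparison), and 3 genes most like each of 5 cyclin genes. The members and lists were chosen with earlier results of these data known. Of the gene identifiers 5919 matched the R64 annotation and 14 did not. Every column of the tables was mapped to a library. The result of 1 further gene list is not reported here.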

Additional observations from a re-analysis of the deposited data

Results flagged for a closer look

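The 8 tested cyclin genes were searched, in truncated share and 3′ UTR length, for opposite caffeine effects in wild type and mutants. How often such a pattern occurs over all genes was not counted. In CLN2 for truncated share and PCL1 for 3′ UTR length, both wild-type pairs went one way and both mutants the other. The difference itself was not tested in either case. The truncated share of CLN2 changed by -1.80 percentage points in pcf11-13 and by -13.7 in pcf11-dNL, against 3.89 and 4.37 in wild type of experiments 1 and 2. The 3′ UTR of PCL1 changed by -35.5 nt in pcf11-13 and by -58.3 nt in pcf11-dNL, against 55.1 and 87.3 nt in wild type of experiments 1 and 2. The CLN2 value of pcf11-dNL rests on an untreated share of 17.6%, against 2.08% to 9.88% in the other untreated libraries.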

How the results depend on the processing

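Of the values for single cyclin genes under the alternatives, 433 kept their direction and their side of the threshold, 34 lost a call, 11 gained one and 3 reversed. The reversals were CLB2 with caffeine in wild type without the untreated wild-type library of experiment 2 (0.20; range -1.10 to 0.20 with 1 library left out), and PCL1 in pcf11-13 without the untreated wild-type library of experiment 1 (0.12) or the untreated pcf11-13 library (0.66; range -1.25 to 0.66). The counts of called cyclin genes for expression ran from 6 to 9 over all strains when 1 library was left out. Calls over all genes ran from 1087 to 2835 in the same fits. In wild type the count was 5 or 6 when 1 mutant library was left out, beside 1828 to 1855 of all genes. Leaving out a wild-type library left 1 in its group, and counts of those wild-type fits are not given. For the difference of pcf11-13 in its answer to caffeine, the count moved only without a treated wild-type library, through PCL1. Those fits kept 1 library in that group, and calls rose over all genes too. DESeq2 called 1 gene in pcf11-13 (CLB6). For 3′ UTR length over all strains the count was 0 with the replicate block for experiment, 0 with a variance trend and 0 to 2 with 1 library left out. For the truncated share over all strains it was 0 with the block, 0 with a minimum of 50 counts (under which CLB2 was not tested), 2 with a variance trend, 2 with class counts tested in edgeR and 0 to 1 with 1 library left out. In wild type, class counts gave 2 (CLB2 and PCL1). The shares of all genes called under these alternatives are not given here, so these poly(A) counts have no background. The test on class counts was chosen after seeing the data. The block changed no other call of a cyclin gene. CLN3 in wild type passed with DESeq2 size factors (edgeR adjusted p = 0.045) and without URA3 and 2-micron features (0.047). Over all genes, DESeq2 called 409 and the block 30 in pcf11-13, against 181. Depth limits CLB6 and CLB1 most.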
